A study of Bos taurus with 44 samples.

Results

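Prostaglandins are short-lived lipid signals that govern luteolysis, blood flow and embryo-maternal exchange in the ruminant uterus. Cyclooxygenase-2, encoded by PTGS2, is the inducible enzyme that turns arachidonic acid into prostaglandin H2, from which terminal synthases such as the prostaglandin D synthase encoded by PTGDS make the individual prostaglandins. The 15-hydroxyprostaglandin dehydrogenase encoded by HPGD takes the first step of their breakdown, so transcripts of the 3 genes stand at the entry, at 1 branch and at the exit of the pathway.

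These genes were followed through every probe that carries their symbol on a bovine 2-colour array: 3 of 8073 named genes, and 4 of 13824 probes. PTGS2 has 2 probes, here called PTGS2 probe 1 (spots 19715 and 19716) and PTGS2 probe 2 (spots 21731 and 21732). PTGDS has 1 probe (spots 19609 and 19610) and so has HPGD (spots 6713 and 6714). All 4 probes had both spots on all 44 arrays, none was lost to the filter on missing values, and each probe is reported on its own.

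Each array set RNA of 1 uterine sample of cattle against another, taken from caruncular tissue, where the placenta attaches, or from the intercaruncular tissue between. The animals are grouped by how conception was brought about: artificial insemination (AI), transfer of embryos fertilised in vitro (IVF-ET) or cloning by somatic cell nuclear transfer (SCNT). The labels describe a further group, CJ, by the word cycle. IVF-ET met AI on 10 arrays in each area, in closed loops of 5 IVF-ET and 5 AI animals. Both loops held the same IVF-ET animals and some of the same AI animals. SCNT met AI directly on 4 caruncular arrays of 2 pairs of pools, and in the intercaruncular area both met CJ, on 10 arrays for 5 SCNT animals and 10 arrays for 4 AI animals, with the same 5 CJ animals on both sets. The AI animals of the IVF-ET loops carry another code (IAT) than those set against CJ (IAJ). No age, breed or stage of pregnancy is given in the sources used here, nor the number of animals in a pool. Since the RNA came from whole tissue, fewer cells of a type and less RNA per cell cannot be told apart.

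Values are log2 ratios, always given as the first-named group minus the second, and a difference was called past a Benjamini-Hochberg adjusted p of 0.05 over all probes tested with limma. Errors of fitted differences are standard errors (SE). The labels leave the direction of the ratio unstated. It was read as Cy5 over Cy3, the likely direction: on all 20 arrays with CJ the oxytocin receptor gene OXTR then lay below 0, and 8 interferon-stimulated genes lay above 0 on 13 (IRF9) to 20 (IFIT3) of them, as is known of early ruminant pregnancy. If the ratio runs the other way, all signs given here turn. No dye effect of a member passed the threshold, and the one furthest from 0 was that of HPGD in the intercaruncular loop, -0.59 ± 0.49 (limma, adjusted p = 0.431).

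AI animal B4 stood apart from the other AI animals against CJ and is therefore described first. It is named on 4 arrays, where every other animal of that set of AI animals is on 2, and 2 of its arrays hold CJ animal B8. The median log2 ratio of 8 interferon-stimulated genes was -0.20 in B4, against 3.33 in B2, 4.65 in B3 and 3.22 in B6. That of 8 stromal markers was 0.57 in B4, against -1.90, -1.86 and -1.57 in B2, B3 and B6. OXTR was at -1.19 in B4, against -2.73 to -4.34 in the other 3. Each result against CJ is given with and without this animal where it matters. Counts of genes without B4 or without CJ B8 were added after seeing the data.

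**Figure D1:**
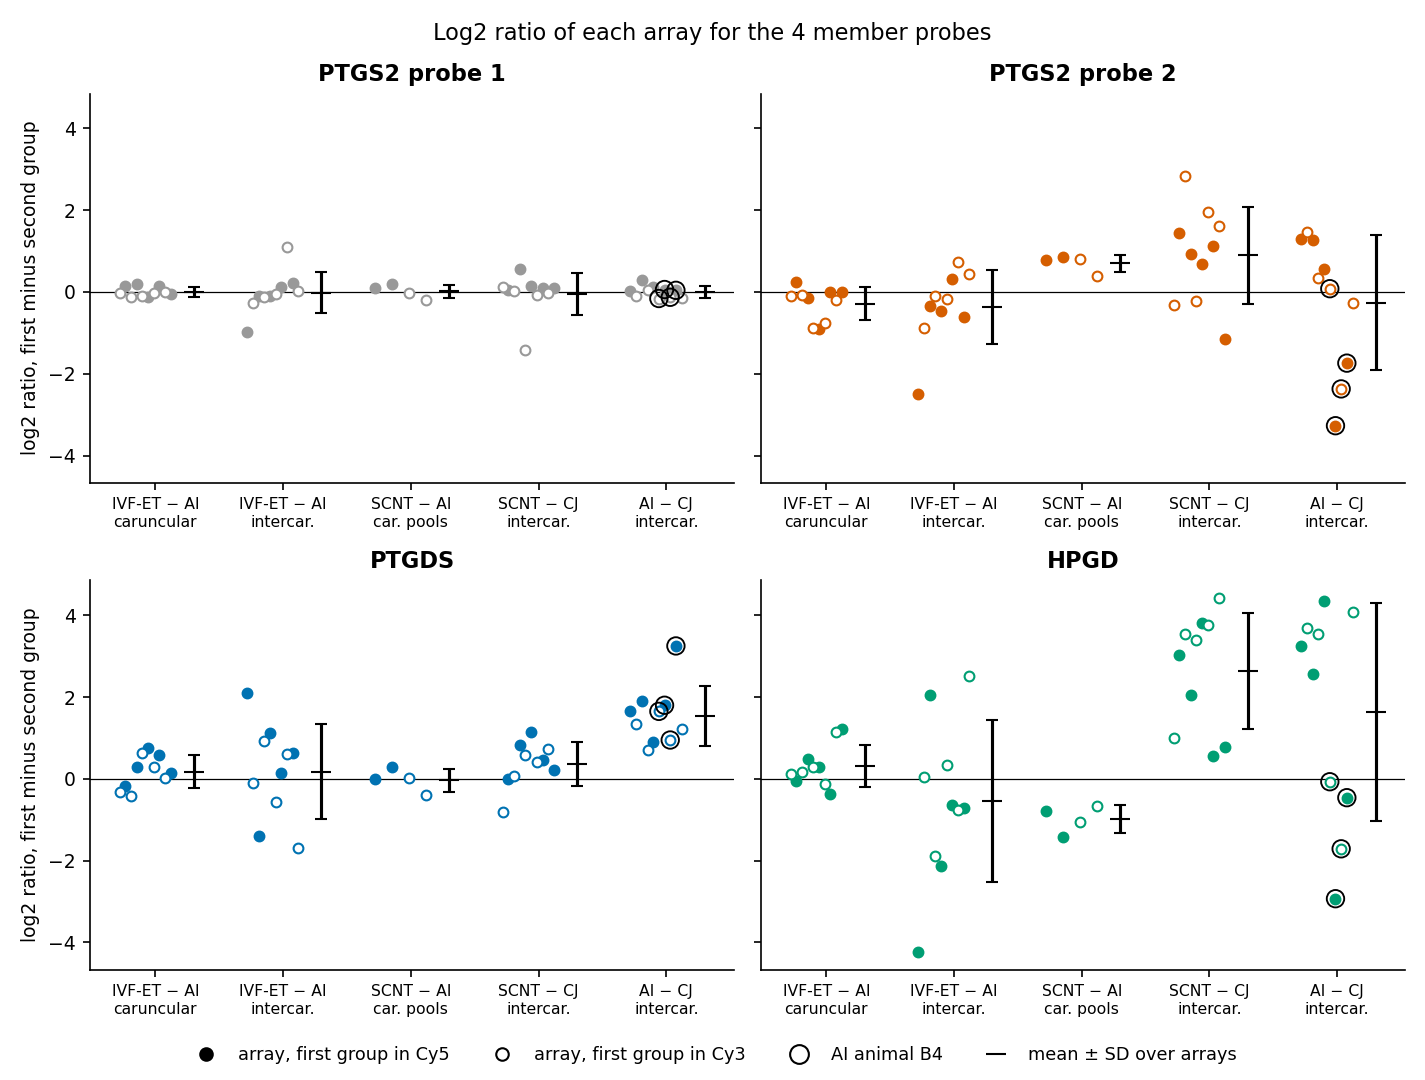
Log2 ratio of each array (y axis, first minus second group) for the 4 member probes in the 5 sets of arrays (x axis). Filled points have the first group in Cy5, open points in Cy3, black rings mark AI animal B4, and bars are the mean ± SD over arrays. HPGD lay above 0 on 10 of 10 SCNT arrays and on 6 of 10 AI arrays against CJ, and PTGDS on 10 of 10 AI arrays.

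The plot of log2 ratios by array shows how unlike the 4 probes were in their spread. Over the 44 arrays the SD of HPGD was 2.12, larger than that of 99.9% of the 13772 probes with a value on every array. PTGS2 probe 2 followed with an SD of 1.17 (larger than 99.1% of probes) and PTGDS with 0.91 (98.0%), whereas PTGS2 probe 1 had an SD of 0.35 (59.3%). The 2 spots of a probe correlated over the arrays with r = 0.996 for HPGD, 0.974 for PTGS2 probe 2, 0.965 for PTGDS and 0.752 for PTGS2 probe 1, as a description of 44 arrays that share animals.

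PTGS2, the entry enzyme, gave different pictures with its 2 probes. Probe 1 stayed near 0 in every comparison: its fitted differences ran from -0.05 to 0.02, and the 95% interval of SCNT against CJ was -0.28 to 0.19. On 2 intercaruncular loop arrays and 1 SCNT array it lay near or beyond 1 in size, at -0.97 (IVF-ET B99111 with AI B98095), 1.11 (IVF-ET B00054 with AI B9098) and -1.43 (SCNT B902 with CJ B857). On that SCNT array its 2 spots read -2.22 and -0.64, the widest gap of any member spot pair. Across the 44 arrays the 2 probes of PTGS2 correlated with r = 0.298.

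PTGS2 probe 2 varied more than probe 1, and which of them better reports the PTGS2 transcript is not known here. Between SCNT and AI pools of the caruncular area it read 0.77 and 0.39 on the arrays of SCNT pool 1 with AI pool 2, and 0.85 and 0.80 on those of SCNT pool 2 with AI pool 1. All 4 arrays were above 0, in both dyes. The fitted difference was 0.70 ± 0.10 (95% interval 0.45 to 0.95), with p = 0.000667 before and 0.127 after limma's adjustment. It rests on 2 values, the means of the dye-swap pairs, and whether the pools share animals is not given. No probe of the array was called in this comparison (0%, with 1744 at an unadjusted p under 0.05). Taken as 4 separate values with a dye term, the arrays gave 0.70 ± 0.09 and an adjusted p of 0.0216. Dye swaps of the same pools then count as independent, which overstates the replication.

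In the intercaruncular area, PTGS2 probe 2 against CJ averaged 0.57 in SCNT animal B811, 0.23 in B873, 1.55 in B888, 0.23 in B902 and 1.88 in B904. All 5 animals were above 0, but 3 of 10 arrays lay below it, 2 of them with CJ B8 (-0.31 and -1.14). The difference was 0.89 ± 0.41 (adjusted p = 0.129, limma). Without CJ B8 it was 1.3 ± 0.32 (adjusted p = 0.00553), and without AI B4 it was 0.89 ± 0.29 (0.0305).

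Among the AI animals the same probe averaged 1.37 in B2, 0.51 in B3 and 0.44 in B6, but -1.82 in B4. B4 lay below the other 3, which overlapped the SCNT animals, and the low values of B4 came with CJ B8 (-3.27 and -2.37) and CJ B857 (-1.74), not with CJ B808 (0.08). The fitted AI difference was -0.19 ± 0.42 (adjusted p = 0.898, limma), and the estimate turned to 0.77 without B4. SCNT minus AI, taken through CJ, was 1.09 ± 0.55 (adjusted p = 0.632), or 0.12 ± 0.48 without B4.

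Between IVF-ET and AI, PTGS2 probe 2 did not pass in either area. The 10 caruncular arrays ran from -0.90 over a median of -0.13 to 0.24, with IVF-ET B99111 at -0.89 and -0.90 against its 2 partners. The difference was -0.28 ± 0.12 (p = 0.0324, adjusted p = 0.531, limma). In the intercaruncular loop the arrays ran from -2.50 over -0.26 to 0.74, and the difference was -0.36 ± 0.23 (adjusted p = 0.686). The contrast of the 2 areas was 0.07 ± 0.28 (adjusted p = 0.972). Only 3 probes of the array, or 0.0217%, were called in the caruncular loop (0.0217% lower and 0% higher), none of them a member.

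PTGDS, the prostaglandin D synthase, was higher in AI than in CJ animals. On the 10 AI arrays it ran from 0.71 over a median of 1.49 to 3.25, and by animal it averaged 1.62 in B2, 1.44 in B3, 0.80 in B6 and 1.91 in B4. Every array and every AI animal lay above 0, B4 included, which had the highest mean for this gene and the lowest for HPGD and PTGS2 probe 2. The difference was 1.51 ± 0.19, or 2.86-fold (adjusted p = 1.04e-05, limma). It kept its call when each of the 14 animals was left out in turn, between 1.28 and 1.70.

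SCNT animals did not show this shift to the same extent. PTGDS against CJ averaged -0.41 in B811, 0.48 in B873, 0.43 in B888, 0.86 in B902 and 0.44 in B904. The arrays ran from -0.82 over 0.43 to 1.15, and the difference from CJ was 0.36 ± 0.18 (95% interval -0.02 to 0.74, adjusted p = 0.175, limma). Only SCNT B902 (0.86) and AI B6 (0.80) broke the order of the 2 groups of animals. The difference between them, SCNT minus AI through the shared CJ animals, was -1.15 ± 0.24, or 2.22-fold lower (adjusted p = 0.0401, limma).

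That last call rested on the full set of animals. It was kept without AI B6 or without SCNT B902 and lost in the other 12 of the 14 fits that left out 1 animal, with differences from -1.34 to -0.92 and adjusted p from 0.0209 to 0.281, while the sign was the same in all 14. Without B4 it was -0.92 ± 0.23 (adjusted p = 0.24, limma), and without CJ B8 it was -1.05 ± 0.27 (0.281). PTGDS was 1 of 5 probes lower in SCNT than in AI (0.0362% of probes), against 37 higher (0.268%) and 42 called in all (0.304%).

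In the direct comparison of caruncular pools, PTGDS did not separate SCNT from AI. It read -0.01 and -0.40 on the arrays of SCNT pool 1, and 0.28 and 0.01 on those of SCNT pool 2. The arrays lay on both sides of 0, and the difference was -0.03 ± 0.11 (95% interval -0.31 to 0.25, adjusted p = 0.954, limma). That interval does not reach the intercaruncular estimate of -1.15, but pools and animals, and a direct and an indirect design, differ between the areas, and the difference between areas was not tested.

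**Figure D2:**
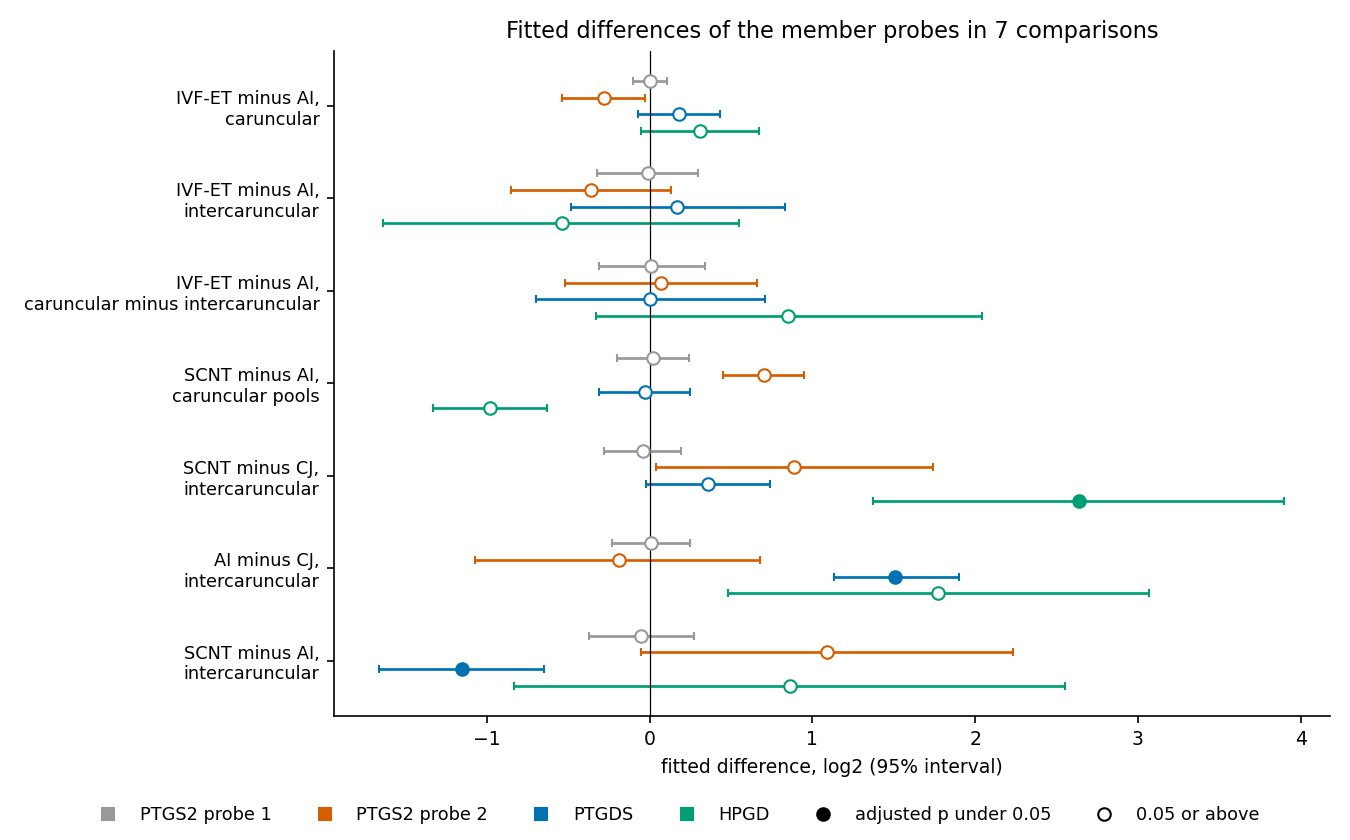
Fitted difference in log2 (x axis) with its 95% interval for the 4 member probes (colours) in 7 comparisons (y axis). Filled points passed an adjusted p of 0.05: HPGD in SCNT minus CJ (2.64), PTGDS in AI minus CJ (1.51) and PTGDS in SCNT minus AI (-1.15).

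HPGD, the enzyme of breakdown, was higher in SCNT than in CJ animals. On the 10 arrays it ran from 0.55 over a median of 3.21 to 4.42. By animal it averaged 2.02 in B811, 2.60 in B873, 2.16 in B888, 3.61 in B902 and 2.79 in B904. All arrays lay above 0, and those with CJ B8 (1.01 and 0.79) were among the 3 lowest. The difference was 2.64 ± 0.61, or 6.22-fold (adjusted p = 0.00275, limma), and it passed the threshold in all 26 alternatives, with values from 2.29 to 3.08.

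The plot of fitted differences shows the widest interval for the same gene. Against CJ, HPGD of 3 AI animals lay within or above the range of the SCNT animals: 3.12 in B2, 3.67 in B3 and 3.95 in B6. B4 was at -1.29, with -0.07 beside CJ B808, -2.93 and -1.71 beside CJ B8 and -0.46 beside CJ B857. The 6 arrays of B2, B3 and B6 ran from 2.56 to 4.36 and did not overlap the 4 of B4. With all animals the AI difference was 1.77 ± 0.62 (3.42-fold, adjusted p = 0.0551, limma), which missed the threshold. Without B4 it was 3.58 ± 0.41 (adjusted p = 6.54e-06), and without CJ B8 it was 2.62 ± 0.50 (0.00106).

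SCNT and AI could not be separated for HPGD in the intercaruncular area. The difference through CJ was 0.86 ± 0.81 (95% interval -0.83 to 2.55, adjusted p = 0.917, limma), and it turned to -0.94 ± 0.51 without B4. In the caruncular pools HPGD read -0.79 and -0.67 on the arrays of SCNT pool 1 and -1.42 and -1.05 on those of SCNT pool 2. All 4 arrays were below 0, pool 2 further than pool 1. The difference was -0.98 ± 0.14 (95% interval -1.33 to -0.63), with p = 0.000669 and an adjusted p of 0.127. Taken as 4 separate values, the arrays gave an adjusted p of 0.021. That fit counts dye swaps of the same pools as independent and so overstates the replication. The median of 9 epithelial markers was -0.11 in pool 1 and -0.56 in pool 2, and that of 8 trophoblast markers 1.83 and 0.27. Their part in the HPGD values was not tested.

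Against CJ, 1 of the 4 member probes was called in each of the 2 groups, HPGD in SCNT and PTGDS in AI, both higher. Over all probes 23.4% were called for SCNT (11.2% higher and 12.2% lower) and 16.7% for AI (7.92% higher and 8.75% lower), so with all animals the members' count lay near the background. Without AI B4 it was 2 of 4 in each, HPGD and PTGS2 probe 2 for SCNT and HPGD and PTGDS for AI, all higher, where 27.4% and 20.3% of all probes were called. Without CJ B8 the same probes passed, against 24.8% and 20.3%. These 2 animals were left out of the counts after the low HPGD and PTGS2 probe 2 ratios of their arrays had been seen. The counts without them are therefore no separate support. HPGD was large in size in every comparison, called or not, exceeding from 98.3% to 99.8% of all probes, beside its wide spread over arrays. The SCNT and AI arrays share the CJ animals, so their values stand side by side and are not independent.

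**Figure D3:**
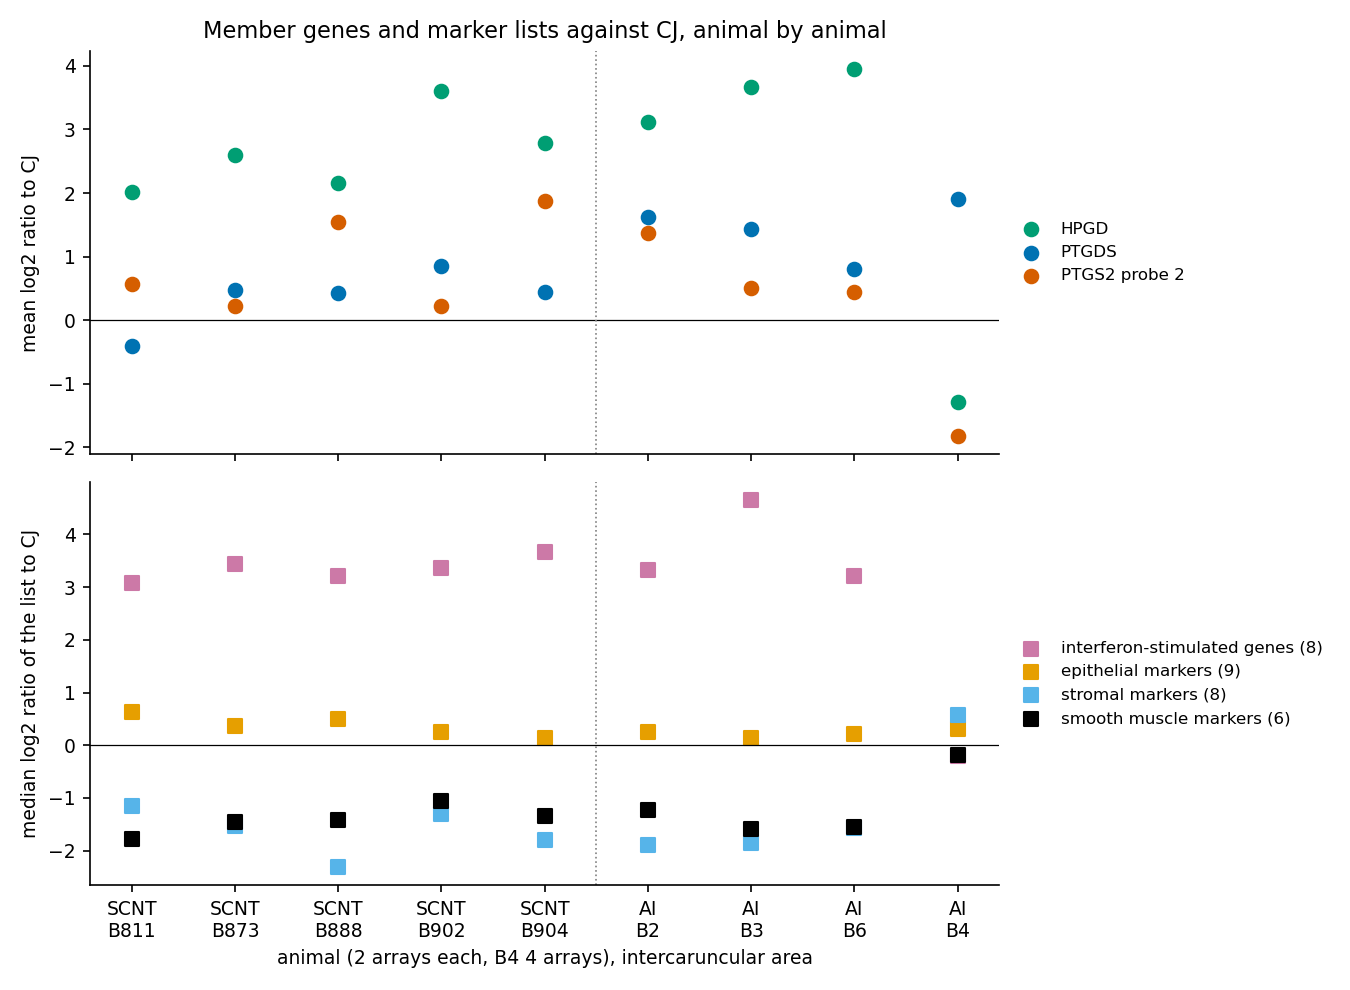
Mean log2 ratio to CJ of HPGD, PTGDS and PTGS2 probe 2 (upper panel) and median log2 ratio to CJ of 4 marker lists (lower panel) for each SCNT and AI animal (x axis), intercaruncular area. B4, at the right, is below 0 for HPGD (-1.29) and PTGS2 probe 2 (-1.82), above 0 for PTGDS (1.91), and near 0 for the interferon-stimulated genes (-0.20).

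Markers of other cells moved in the same comparisons, as the plot by animal shows. In SCNT against CJ, 7 of 8 stromal markers and 5 of 6 smooth muscle markers were lower, and 4 of 9 epithelial markers were higher and 1 lower. In AI against CJ, 4 of 8 stromal and 2 of 6 smooth muscle markers were lower, and 3 of 9 epithelial markers higher. Without B4 these AI counts were 7, 4 and 3, with 1 epithelial marker lower. Of 8 trophoblast markers, 4 were higher in SCNT and 0 in AI. Of 7 macrophage markers, 3 were higher in SCNT and 5 in AI, and of 6 endothelial markers 3 were higher and 1 lower in SCNT, and 2 higher and 1 lower in AI. Without B4 the macrophage counts were 3 in SCNT and 3 in AI, and the same without CJ B8. The animals with the highest HPGD among SCNT and AI, B902 and B6, had epithelial medians of 0.26 and 0.22 within ranges of 0.13 to 0.63 and 0.14 to 0.31. Their trophoblast medians were 1.35 and 0.13, each the highest of its group. Among the other SCNT animals it was 0.58 in B811, which was lowest for HPGD, 0.15 in B904, 0.13 in B888 and 0.02 in B873. Among the other AI animals it was 0.12 in B3, 0.01 in B4, which was lowest for HPGD, and -0.04 in B2. The part of these cells in the HPGD and PTGDS values was not tested.

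Between IVF-ET and AI, HPGD did not pass the threshold in either area. The 10 caruncular arrays ran from -0.38 over 0.22 to 1.22. IVF-ET B9073 alone lay above 1, at 1.14 and 1.22 against its 2 partners. The difference was 0.31 ± 0.16 (95% interval -0.05 to 0.67, adjusted p = 0.619, limma). PTGDS on the same arrays ran from -0.43 over 0.21 to 0.76, with a difference of 0.18 ± 0.11 (adjusted p = 0.679).

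The intercaruncular loop was far wider. HPGD ran from -4.23 over -0.68 to 2.52, an SD of 1.98 against 0.52 in the caruncular loop, and PTGDS from -1.70 over 0.37 to 2.10. Single IVF-ET animals fell on both sides of 0: HPGD in B99111 was -4.23 beside AI B98095 and 2.52 beside AI B98070, and B9073 was at -2.12 and -1.89. The differences were -0.54 ± 0.51 for HPGD (95% interval -1.64 to 0.55, adjusted p = 0.799, limma) and 0.17 ± 0.30 for PTGDS (adjusted p = 0.913). No probe was called here (0% of 13816, with 1216 at an unadjusted p under 0.05). The contrast of the 2 areas was 0.85 ± 0.57 for HPGD (adjusted p = 0.799) and 0.00 ± 0.34 for PTGDS (0.999). In it 0.00723% of probes were called, all lower (0.00723%) and none higher (0%). It took the 2 areas of an animal as separate animals, although the loops share animals.

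**Figure D4:**
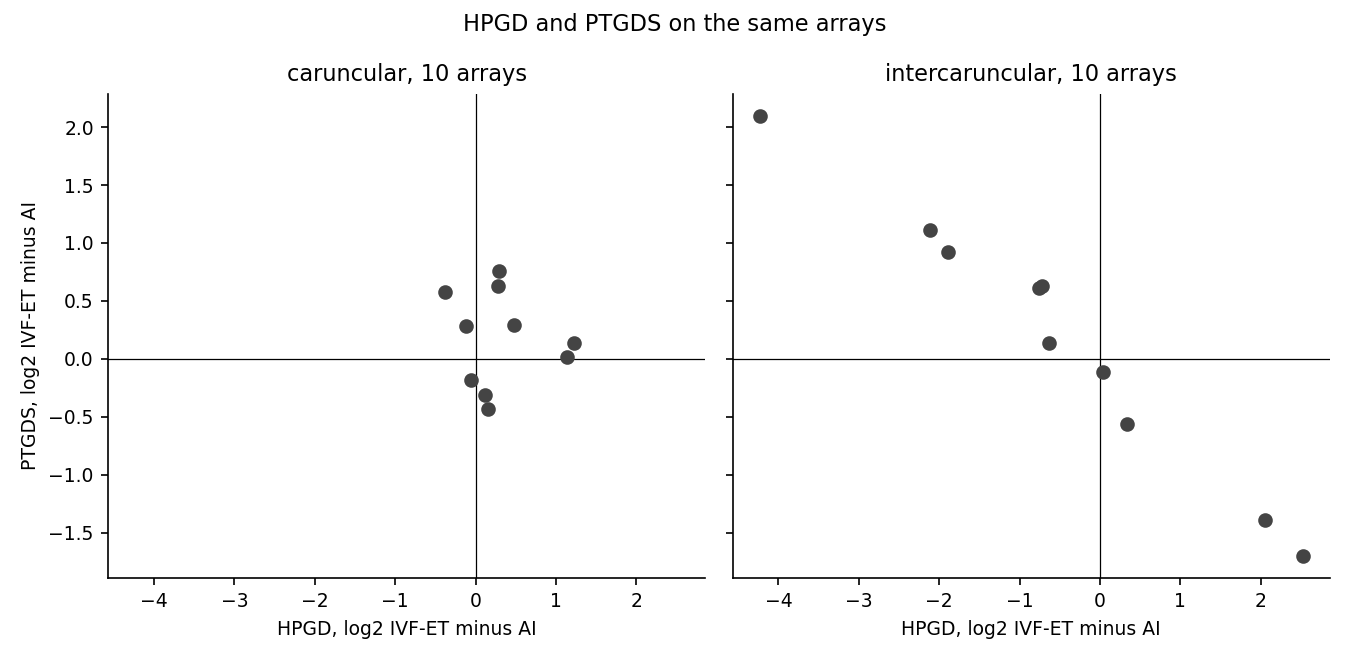
PTGDS (y axis) against HPGD (x axis), log2 ratio of IVF-ET minus AI, 1 point per array, for the caruncular loop (left) and the intercaruncular loop (right). In the intercaruncular loop the 2 genes had opposite signs on 10 of 10 arrays, from -4.23 for HPGD with 2.10 for PTGDS to 2.52 with -1.70.

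HPGD and PTGDS mirrored each other within that loop, as the plot of one gene against the other shows. On 10 of 10 intercaruncular arrays their ratios had opposite signs. The array of IVF-ET B99058 with AI B9109 read 2.05 for HPGD and -1.39 for PTGDS. That of IVF-ET B9073 with AI B99035 read -2.12 and 1.11. Not all of the signs were clear of 0. The array of IVF-ET B99058 with AI B98095 read 0.04 for HPGD and -0.11 for PTGDS. That of IVF-ET B00049 with AI B9098 read -0.63 and 0.14, and its 2 PTGDS spots read 0.74 and -0.47. In the caruncular loop the signs were opposite on 4 of 10 arrays, and against CJ on 2 of 10 SCNT and 4 of 10 AI arrays, all 4 of the latter those of B4. Each animal of a loop is on 2 arrays, so the 10 values are not independent, and no test was made. Among all pairs of member probes in sets of 10 arrays, this count was the most one-sided. HPGD and PTGS2 probe 2 had opposite signs on 9 of 10 caruncular loop arrays. The PTGS2 probes had the same sign on 9 of 10 intercaruncular loop arrays. How often other probe pairs of the array do so was not counted.

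Other lists moved over the same intercaruncular animals. Among the 5 IVF-ET animals HPGD was lowest in B9073, whose arrays averaged -2.01, and next lowest in B99111, at -0.85. B9073 had a stromal marker median of 0.79, the highest of the 5 IVF-ET animals, and an epithelial median of -0.53, the lowest. B99111 had the second highest stromal median, 0.39, but also the second highest epithelial median, 0.07. B99058, highest for HPGD at 1.04, had a stromal median of -0.73 and an epithelial median of 0.28, the lowest and the highest. Its interferon-stimulated genes stood at 1.49, the highest. In the other IVF-ET animals they stood at 0.50 in B00054, 0.37 in B9073, -0.20 in B00049 and -0.59 in B99111. Each mean is a ratio to 2 AI animals and does not tell which side moved. By AI animal, HPGD averaged from -2.09 in B98095 to 0.90 in B98070, and B99111 met both. Their stromal medians were 1.24 and -0.64, their epithelial medians -0.20 and 0.38, and their interferon-stimulated medians -1.84 and 1.55. The highest interferon-stimulated median of the AI animals was that of B9109, 1.57, at 0.08 for HPGD. In the caruncular area B9073 was instead the highest for HPGD (1.18) and for the epithelial list (0.63). Whether these cells account for the HPGD values was not tested.

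Of 47 other genes listed for the pathway, 24 were measured. In SCNT against CJ 4 of them were higher and 2 lower, and in AI against CJ 2 were higher and 1 lower, shares close to the background given above. The median difference of the 24 genes was 0.06 for SCNT and 0.05 for AI, beside 0.01 over all probes in both. None of the 24 was called in the other 5 comparisons, in which the unadjusted counts over all probes were between 900 and 1744. Without B4 the AI counts were 2 higher and 2 lower (PLA2G7, AKR1B1, PTGER4 and PTGFRN), where 20.3% of all probes were called.

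**Figure D5:**
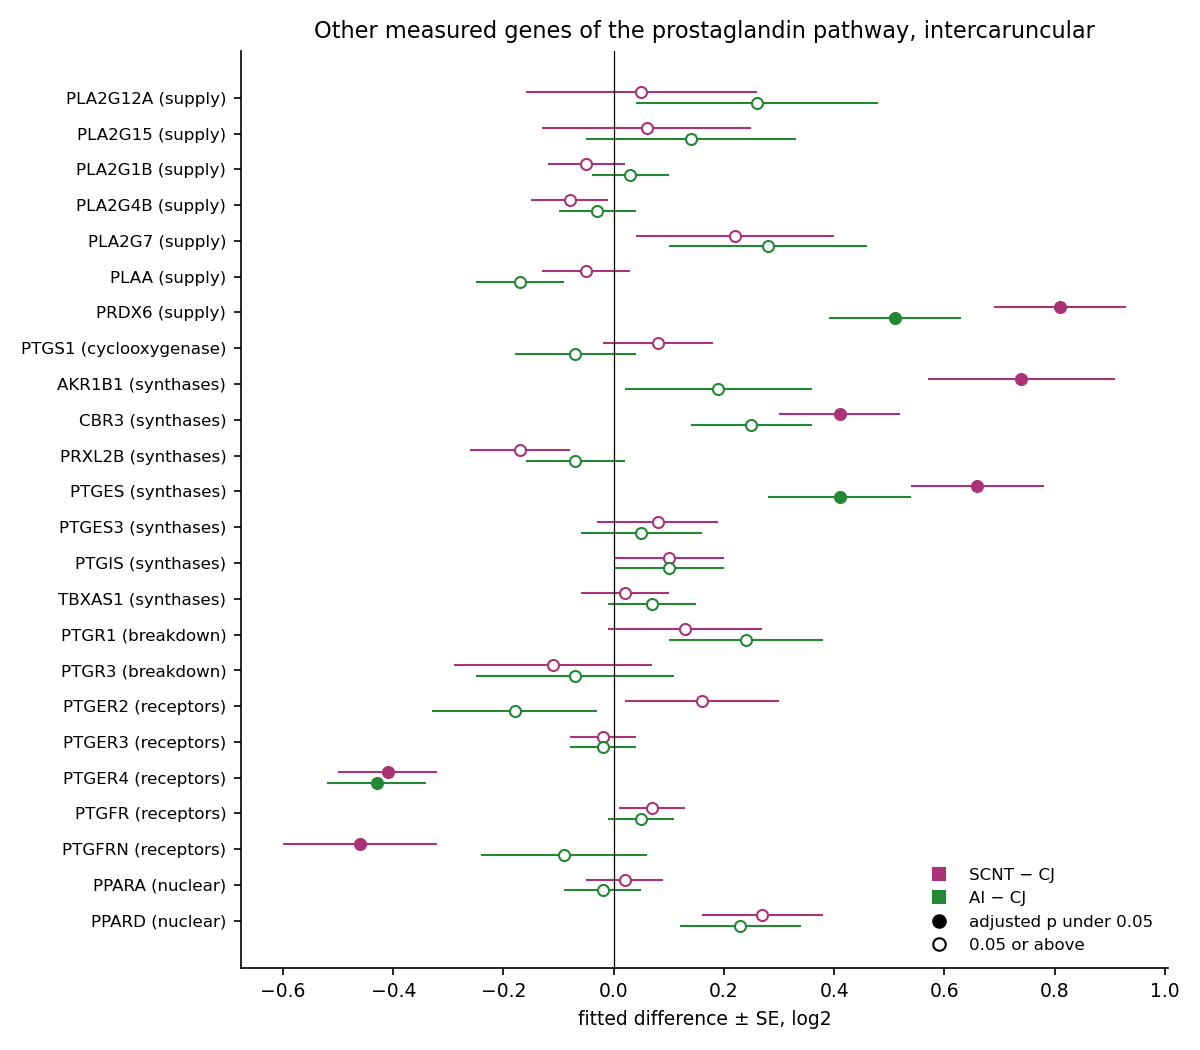
Fitted difference ± SE in log2 (x axis) for the 24 other measured genes of the pathway, by role (y axis), in SCNT minus CJ and AI minus CJ. Filled points passed an adjusted p of 0.05; PRDX6, at 0.81 and 0.51, and PTGES, at 0.66 and 0.41, did so in both, and so did PTGER4, at -0.41 and -0.43.

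Upstream of cyclooxygenase, PRDX6, a peroxiredoxin with phospholipase A2 activity, was higher against CJ in SCNT (0.81 ± 0.12, adjusted p = 4.16e-05, limma) and in AI (0.51 ± 0.12, 0.0056). PTGS1, the constitutive cyclooxygenase, ranged from -0.07 to 0.15 over the 7 comparisons and passed in none. The plot of pathway genes shows the synthases next. PTGES, the inducible prostaglandin E synthase, was higher in SCNT (0.66 ± 0.12, adjusted p = 0.000457) and in AI (0.41 ± 0.13, 0.0293). Without B4 neither PRDX6 nor PTGES passed in AI. In the caruncular pools PTGES was at -0.66 ± 0.11 (adjusted p = 0.144), and between IVF-ET and AI at -0.45 ± 0.16 (0.498) in the caruncular and -0.21 ± 0.12 (0.667) in the intercaruncular area. AKR1B1, an aldose reductase that can form prostaglandin F2-alpha in bovine endometrium, was higher in SCNT (0.74 ± 0.17, adjusted p = 0.00271), and at 0.19 ± 0.17 in AI (0.604). In the intercaruncular loop it was at -0.47 ± 0.12 (adjusted p = 0.418). CBR3, a carbonyl reductase, was higher in SCNT (0.41 ± 0.11, adjusted p = 0.00884), and at 0.25 ± 0.11 in AI (0.149). Its difference of SCNT minus AI was 0.16 ± 0.15 (0.917).

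Of the receptors, PTGER4, which binds prostaglandin E2, was lower against CJ in SCNT (-0.41 ± 0.09, adjusted p = 0.00253, limma) and in AI (-0.43 ± 0.09, 0.00285). PTGFRN, a protein that associates with the prostaglandin F receptor, was lower in SCNT (-0.46 ± 0.14, adjusted p = 0.0214). In AI it was at -0.09 ± 0.15 (0.848), and it passed there without B4. PTGFR, the prostaglandin F receptor, lay between -0.16 and 0.07 in all 7 comparisons and passed in none. Beside HPGD, 2 of 3 genes listed for breakdown were measured, and neither passed in any comparison. The 2 genes listed for transport, the prostaglandin transporter gene SLCO2A1 and ABCC4, had no probe with their symbol alone and were not measured.

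For each member the 5 named probes with the most similar pattern over the 44 arrays were listed, as a description of arrays that share animals. HPGD was nearest to DHRS3, a retinal reductase (r = 0.941), then TMEM192 (0.923), MCOLN2 (0.914), RNF149 (0.909) and PPP2R2A (0.905). PTGS2 probe 2 was nearest to PGF, placental growth factor (0.804), EPAS1 (0.775), TMEM14C (0.764), FOSL2 (0.758) and HIF1A (0.756), of which EPAS1 and HIF1A encode hypoxia-inducible factors. PTGDS was nearest to IGF2, insulin-like growth factor 2 (0.766), TCEA2 (0.759), VEGFB (0.751), NUCB1 (0.746) and SUN2 (0.742). PTGS2 probe 1 shared no name with probe 2 in its list: KIR2DL5A (0.791), DCLK1 (0.765), HBE4 (0.752), GAP43 (0.746) and EGLN3 (0.745). Among the members themselves HPGD and PTGS2 probe 2 correlated with r = 0.634, and HPGD and PTGDS with -0.108. The first pair did not move together in every set. Its signs were opposite on 9 of 10 caruncular loop arrays and on all 4 pool arrays. They were the same on 5 of 10 intercaruncular loop arrays, and against CJ on 7 of 10 SCNT and 8 of 10 AI arrays.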

How the data were processed

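The authors deposited 1 log2 ratio of the 2 dyes per spot and array. To check the base, 331 values below -4 were turned back into ratios: as log2, 100.0% gave 4 decimals (tolerance 6e-05), and as natural logs 0.9%. How background and dye were corrected is not given in the sources used here, spot intensities were not analysed, and nothing more was normalized here (array medians -0.0238 to 0.01). Per the labels' protocols, Trizol RNA was copied from oligo-dT primers and coupled to Cy3 or Cy5.

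The 27648 spots form 13824 probes of 2 spots, which were averaged. The supplied annotation gives 8645 probes 1 symbol, 105 several and 5074 none; 8620 matched the supplied gene table by Entrez number. Within arrays, first and second spots had r between 0.545 and 0.935 across probes, which are no independent replicates.

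Arrays were the units of the fit, and animals entered only through a common correlation of arrays that share one. The estimated correlations were low, so arrays counted almost as separate values. B4, on 4 arrays, therefore weighed more than the other AI animals. Each probe was fitted by generalised least squares in limma 3.58.1 (R 4.3.3). The model held the dye and a common correlation of arrays with the same animal (0.14 caruncular, 0.02 intercaruncular, 0 over both loops, 0.07 with CJ). In the contrast of areas the caruncular and intercaruncular samples of an animal were taken as separate animals, and an alternative linked them. Moderated p-values were adjusted by Benjamini-Hochberg over all probes measured on 80% of the arrays or more. The pools were averaged per dye-swap pair, giving 2 values. The fits were tested on simulated data. List genes are represented by the probe with the fewest missing values. Members, lists and the naming rules (the members, list genes past the threshold, PTGS1, PTGES, AKR1B1, SLCO2A1 and PTGFR, and the 5 most similar probes) were chosen with earlier results of these data known. Alternatives covered single spots, centring, scaling, the filter, the correlation, the dye term, animal names and each animal left out. No sequence is shown because none was supplied. Figures were drawn with matplotlib 3.10.9 in Python 3.11.15.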

Additional observations from a re-analysis of the deposited data

Results flagged for a closer look

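A gap test on single values (52 checks, of which chance alone flags about 1 in 20) picked out 8 values that lay far from the rest of their group. For HPGD these were AI animal B4, at -1.29 against CJ, and CJ animal B8, at -2.32 over its 2 AI arrays, both of which were with B4. For PTGDS they were the array of AI B4 with CJ B857, at 3.25, and CJ animal B857, at 2.24 over its AI arrays, of which that array is 1. For PTGS2 probe 2 it was the intercaruncular array of IVF-ET B99111 with AI B98095, at -2.50, the same array that read -4.23 for HPGD. For PTGS2 probe 1 they were the array of SCNT B902 with CJ B857, at -1.43, whose 2 spots differed by 1.59, CJ B857 at -0.43 over its SCNT arrays, of which that array is 1, and CJ B5 at 0.18 over its AI arrays.

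PTGDS was also picked out because its difference from CJ was not the same in SCNT and AI animals. The test of the difference itself gave -1.15 ± 0.24 (limma, adjusted p = 0.0401). SCNT animals averaged from -0.41 to 0.86 and AI animals from 0.80 to 1.91.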

How the results depend on the processing

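Of the refitted member values, 12 newly passed the threshold, 16 no longer did, and no called value changed sign. The other 540 were labelled the same. These include the fits that left out 1 pair of pools, which have no p-value. With 2 pairs, the rule used for those fits could give no other label. The HPGD difference of SCNT from CJ and the PTGDS difference of AI from CJ passed in all 26 alternatives each. Settings that changed a call are given with limma's adjusted p. With the first spot alone, the pools gave -0.96 for HPGD (0.0382) and 0.67 for PTGS2 probe 2 (0.039), and PTGDS of SCNT minus AI gave -1.10 (0.0772). With the 4 pool arrays taken separately, HPGD gave -0.98 (0.021) and PTGS2 probe 2 gave 0.70 (0.0216), but dye swaps of the same pools are not independent. HPGD of AI minus CJ gave 1.92 with arrays centred and scaled (0.0487) and 1.83 over complete probes with 1 symbol (0.0415). PTGDS of SCNT minus AI gave -1.08 at a correlation of 0.3 (0.134) and -1.17 with no dye term (0.068). Alternatives chosen after seeing the data left out AI B4 beside CJ B808 and, in 1 dye, CJ B8, or its other 2 arrays. HPGD of AI minus CJ was then 2.39 (0.00796) or 2.27 (0.0157), PTGDS of SCNT minus AI was -1.12 (0.145) in the first case, and 22 or 24 probes were called for SCNT minus AI. Leaving out 1 animal at a time moved HPGD of AI minus CJ between 1.26 and 3.58, PTGS2 probe 2 of SCNT minus CJ between 0.58 and 1.3, and PTGDS of SCNT minus AI between -1.34 and -0.92.

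Counts of called probes were less stable. In the caruncular loop the count of 3 was 0 with the first or the second spot, with arrays centred and scaled, and at a correlation of 0.3. In the intercaruncular loop the count of 0 was 1 with the second spot and with no correlation, and 2 over complete probes with 1 symbol and with no dye term. The contrast of areas went from 1 to 0 with arrays centred and scaled and at a correlation of 0.3. The pools went from 0 to 94 with the first spot, 2 with the second, 16 with arrays centred, 11 over complete probes with 1 symbol and 257 with the 4 arrays separate. At a correlation of 0.3 the counts were 1840 for SCNT minus CJ, 1119 for AI minus CJ and 16 for SCNT minus AI, and on its own arrays AI minus CJ had 1536. Leaving out 1 animal at a time gave 0 to 2 in the caruncular loop, 0 to 3 for the contrast of areas, 1436 to 2812 for AI minus CJ and 7 to 58 for SCNT minus AI. Apart from these constructions the cause of each change was not tested. The number of arrays and animals limits the precision, and without spot intensities signal over background is unknown.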
